A study of Mus musculus with 6 samples.

Results

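Transcripts of the oxidative phosphorylation machinery were measured in livers of male BALB/c mice after 30 days of isolation and in livers of control mice. The members were all probe sets that the platform annotation gives exactly 1 gene symbol, where that symbol names a subunit of complexes I to V, a complex I assembly factor or cytochrome c. They covered 92 genes of the 18193 with a symbol of their own, by 184 of the array's 45101 probe sets. Complex I held 88 probe sets of 44 genes, complex II 9 of 4 genes, complex III 17 of 9 genes, complex IV 35 of 17 genes, complex V 31 of 17 genes and cytochrome c 4 of 1 gene. The symbol rule also takes in the Ndufaf assembly factors, which build complex I but are not part of it, and Ndufa4, first assigned to complex I and now known as a complex IV subunit. The Ndufaf factors and Ndufa4 were counted with complex I throughout.

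The isolated mice (3 arrays) were kept singly for 30 days in boxes without social contact and with reduced bedding, and the control mice (3 arrays) are labelled only as controls. Diet and water were free in both groups, and the hour of sampling is not given in the sources used here. All mice had the same strain and sex and were labelled as 10 weeks old, and the study text gives group housing of 5 per cage before isolation began. Total RNA was hybridised to Affymetrix mouse arrays, and each deposited value is a MAS5 signal, a linear intensity per probe set. Whether the 3 arrays of a group stand for 3 mice is not stated, so p-values measure the spread between these arrays, which may be technical. Whole liver was used, and a smaller number of cells of a type cannot be told apart from less RNA per cell.

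Oxidative phosphorylation passes electrons from NADH (complex I) and succinate (complex II) through ubiquinone to complex III, then by cytochrome c to complex IV, which reduces oxygen, while the proton gradient so built drives ATP synthesis by complex V. Apart from complex II, each complex joins nuclear-encoded subunits with a few encoded by mitochondrial DNA, which the rule does not take in. Hepatocytes are rich in mitochondria and use the chain to pay for gluconeogenesis, urea synthesis and protein secretion. Nuclear-encoded subunit genes are classically linked to the transcription factors NRF1 and GABPA, an ETS family member, and to their coactivator PGC-1alpha, the product of Ppargc1a.

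Levels of the subunit transcripts in isolated livers lay close to those in control livers in all 5 complexes, and no subunit or assembly factor passed the test. Of the 184 probe sets, 164, covering 86 genes, lay in the upper 50% of all probe sets by mean signal and were tested. In the limma fit, with p-values adjusted by Benjamini-Hochberg across the 22519 probe sets tested, 0 members were called higher and 0 lower at an adjusted p under 0.05. Of all probe sets tested, 1.63% were called, 0.773% higher and 0.857% lower. The smallest adjusted p among members was 0.0691, for Ndufaf4. At an unadjusted p under 0.05 there were 7 members, each of them higher in isolated livers, or 4.27% of those tested against 11.4% of all tested probe sets. The groups did not overlap for 7 members, all with isolated above control, or 4.27% against 15.4% of all tested probe sets, of which 9.62% had isolated above and 5.79% isolated below. These shares keep the differences in brightness between arrays. Isolated array 2 was the lowest isolated array for 149 of the 164 members, and control array 3 the highest control array for 140. Shares without overlap after subtracting the median of each array are not given. The median log2 change over tested members, as isolated minus control, was 0.04, against 0.04 over all tested probe sets.

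The changes of the members were also narrowly spread. The quartiles of their log2 change lay at -0.02 and 0.11, against -0.15 and 0.22 over all tested probe sets. Most members are bright, and 143 lay in the upper 25% of probe sets by mean signal. There the quartiles were -0.01 and 0.11 for the members and -0.08 and 0.20 for all 11260 probe sets, and the groups did not overlap for 2.8% of those members, against 16.9% of all probe sets of that range. Of the members there 0 were called, against 2.5% of all probe sets of that range. Members were not matched to other probe sets by signal within that range, and some genes count by several probe sets. The shares without overlap in that range also keep the differences in brightness between arrays. For 128 of the 164 tested members the 95% interval of the log2 change lay inside -0.5 to 0.5, in 62 of 83 for complex I, 7 of 7 for complex II, 12 of 15 for complex III, 21 of 27 for complex IV and 24 of 28 for complex V. All 128 were among the 142 members with a mean signal of 100 or more, whose median SE was 0.14 on the log2 scale, while the 22 dimmer members had a median SE of 0.29.

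**Figure D1:**
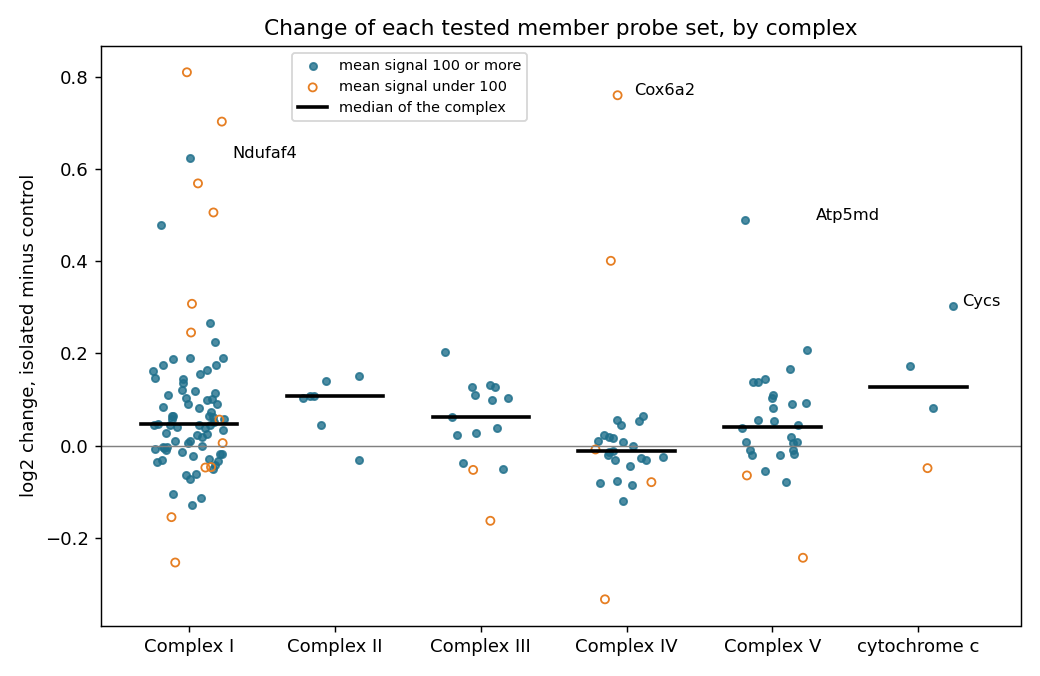
Log2 change (isolated minus control, log2(signal + 2) scale) of each of the 164 tested member probe sets, by complex, with filled points for a mean signal of 100 or more, open points for dimmer probe sets and a bar at the median of each complex. Most points lie near 0, and 7 of the 10 largest changes in either direction belong to probe sets with a mean signal under 100.

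Set side by side, the complexes had median log2 changes of 0.05 (complex I, 83 probe sets), 0.11 (complex II, 7), 0.06 (complex III, 15), -0.01 (complex IV, 27) and 0.04 (complex V, 28), and cytochrome c had 0.13 (4). The share of probe sets above 0 was 68.7% in complex I, 85.7% in complex II, 73.3% in complex III, 40.7% in complex IV and 67.9% in complex V, against 55.4% of all tested probe sets. These are descriptions of lists, and no difference between complexes was tested.

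Per array, the complexes moved together. The median over complex I members, relative to the control mean of each probe set, was 0.16, -0.14 and 0.17 on isolated arrays 1, 2 and 3, against -0.05, -0.07 and 0.12 on control arrays 1, 2 and 3. For complex IV it was 0.08, -0.17 and 0.07 on isolated arrays, against -0.07, -0.09 and 0.15 on control arrays. The groups overlapped in both complexes, and isolated array 2 was the lowest array of all 6 for 88 of the 164 members. A like order stood in the median over all tested probe sets, at 0.03, -0.08 and 0.18 on isolated arrays, against -0.08, -0.05 and 0.14 on control arrays.

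With the median of each array subtracted, the complex IV median was 0.05, -0.09 and -0.11 on isolated arrays, against 0.01, -0.04 and 0.01 on control arrays, and that of complex II was 0.16, 0.00 and 0.03 on isolated arrays, against 0.02, -0.01 and 0.01 on control arrays. Both complexes still overlapped between groups. The complex I assembly factors, so centred, stood at 0.21, 0.13 and 0.14 on isolated arrays, against 0.07, -0.16 and 0.01 on control arrays, without overlap, whereas on the deposited scale their medians of 0.25, 0.05 and 0.33 on isolated arrays, against -0.01, -0.21 and 0.15 on control arrays, overlapped. Centring brought the share of members above 0 to 48.2%, against 65.2% on the deposited scale and 62.8% after quantile normalization. The small upward lean of the members was thus lost under centring but not under quantile normalization.

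**Figure D2:**
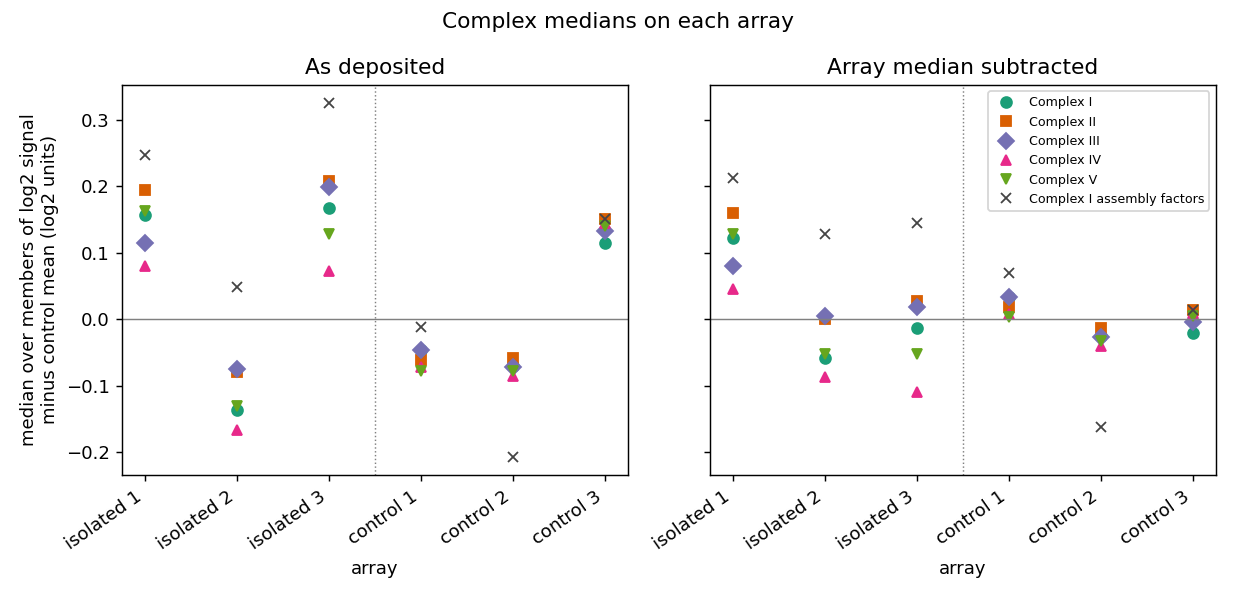
Median over the tested members of each complex of log2 signal minus the control mean (y axis, log2 units) on the 3 isolated and 3 control arrays (x axis), on the deposited scale (left) and after subtracting each array's median over all tested probe sets (right). The complexes rise and dip together from array to array on the left, where isolated array 2 is lowest or level with the lowest for complexes I to V, and the crosses mark the complex I assembly factors.

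Promoters are shown for 4 members to give a view of the sequence around their starts: Ndufaf4, with the smallest p-value (log2 change 0.62), Sdhd (0.14), Cox6a1 (-0.03) and Cycs (0.08), each value by the gene's brightest probe set. Each is the 170 bases before the RefSeq start on the gene's own strand (GRCm38.p6), with Ndufaf4 at chr4:24897913-24898082 (plus strand), Sdhd at chr9:50603850-50604019 (minus strand), Cox6a1 at chr5:115348959-115349128 (minus strand) and Cycs at chr6:50566570-50566739 (minus strand). Capitals mark matches, on either strand, to the NRF1 core CGCANGCG or to the ETS core CCGGAAG.
Ndufaf4: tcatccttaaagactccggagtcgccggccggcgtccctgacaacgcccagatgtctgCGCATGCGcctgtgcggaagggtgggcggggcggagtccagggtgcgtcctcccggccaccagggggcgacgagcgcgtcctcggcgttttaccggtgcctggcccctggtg
Sdhd: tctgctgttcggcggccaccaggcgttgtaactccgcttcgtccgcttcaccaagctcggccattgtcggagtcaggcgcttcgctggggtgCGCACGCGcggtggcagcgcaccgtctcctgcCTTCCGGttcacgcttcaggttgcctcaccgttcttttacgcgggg
Cox6a1: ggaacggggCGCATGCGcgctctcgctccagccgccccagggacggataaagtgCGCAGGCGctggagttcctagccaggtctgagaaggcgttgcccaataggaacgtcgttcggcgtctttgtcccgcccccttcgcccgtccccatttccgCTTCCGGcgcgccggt
Cycs: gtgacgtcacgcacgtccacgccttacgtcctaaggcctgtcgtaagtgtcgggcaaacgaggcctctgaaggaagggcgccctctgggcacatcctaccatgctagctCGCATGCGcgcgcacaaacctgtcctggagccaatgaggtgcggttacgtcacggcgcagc
The NRF1 core begins 112 bases before the start of Ndufaf4, 78 before that of Sdhd, 161 and 116 before that of Cox6a1 and 61 before that of Cycs. An ETS match begins 46 bases before the start of Sdhd and 16 before that of Cox6a1, and in these promoters no NRF1 match overlaps an ETS match. Over 300 bases, of which 250 lie before the start, the NRF1 core was found in 31 of the 80 promoters that matched 75 member genes (38.8%), against 8.21% of all 32851 promoters, and the ETS core in 19 of 80 (23.8%), against 8.86%. By complex the NRF1 core stood in 13 of 41 promoters of complex I, 2 of 3 of complex II, 3 of 5 of complex III, 1 of 12 of complex IV and 11 of 18 of complex V. All 4 promoters shown hold the NRF1 core, unlike most member promoters, and Cox6a1 is the 1 complex IV promoter with it. The 4 are therefore not typical of the members. The promoters of all genes were not matched to those of the members in base composition, and a match is a description of letters only.

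Complex I, the NADH dehydrogenase, has core subunits that carry the flavin and iron-sulfur centres and many accessory subunits. Its 16 tested core probe sets, of 6 genes, had log2 changes from -0.11 to 0.16 with a median of 0.04. Ndufs1, the largest iron-sulfur subunit, had signals of 1007, 928 and 1069.8 in isolated livers, against 853, 841 and 1007 in control livers. The isolated values were mostly higher but met the highest control, and the log2 change was 0.16 ± 0.15 (SE; limma adjusted p 0.793). Ndufv1, which binds the flavin and NADH, had 3 tested probe sets between -0.05 and -0.00, and Ndufs8, an iron-sulfur subunit, had 6 between -0.03 and 0.15.

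The accessory subunits of complex I had a median log2 change of 0.05 over 57 tested probe sets of 28 genes. The extremes among them came from dim second probe sets. For Ndufc2, an accessory subunit of the membrane arm, probe set 1431670_at had signals of 24.3, 24.5 and 41.1 in isolated livers, against 24.1, 6.66 and 22.7 in control livers. Its log2 change was 0.81 ± 0.43 (limma adjusted p 0.522), the highest of all members and one that leans on the low control array 2, with 0.29 when that array was left out. The other 3, brighter Ndufc2 probe sets had log2 changes from 0.06 to 0.17.

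The same held for Ndufa10 and Ndufs4. Ndufa10 probe set 1418068_at had signals of 32.8, 41.7 and 26 in isolated livers, against 18.4, 23 and 17.3 in control livers, without overlap (log2 change 0.70 ± 0.33, limma adjusted p 0.431). The bright Ndufa10 probe set, 1448934_at, had signals of 1713, 1296 and 1685 in isolated livers, against 1339.7, 1114 and 1738 in control livers, and overlapped (0.18 ± 0.17, limma adjusted p 0.795). Ndufs4, an accessory subunit near the NADH-binding module, had log2 changes of 0.51, -0.10 and 0.11 in its 3 tested probe sets. Among 48 genes with several tested probe sets, the signs were alike in 23, and in 0 genes did the probe sets differ by over 1 log2 unit.

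On the low side, Ndufa12 probe set 1425919_at had 30.3, 29.2 and 17.1 in isolated livers, against 29.7, 25.4 and 35.5 in control livers, with a log2 change of -0.25 ± 0.33, while the other 3 Ndufa12 probe sets lay between -0.02 and 0.14. Ndufb2 probe set 1442658_at had 40.9, 37.5 and 45.6 in isolated livers, against 24.8, 57.9 and 67.6 in control livers, with a log2 change of -0.16 ± 0.31. Ndufa4 had 1656, 1287 and 1859 in isolated livers, against 1902, 1544 and 1763 in control livers. It had the lowest value of the 142 brighter members, at -0.13 ± 0.15 (limma adjusted p 0.846), and its groups overlapped.

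The values nearest to the threshold lay among the complex I assembly factors. The 10 tested probe sets of 8 Ndufaf genes had a median log2 change of 0.17, with 8 above 0, 3 with an unadjusted p under 0.05 and 0 called. Those 3 were both probe sets of Ndufaf4 and the probe set of Ndufaf5. Of all tested probe sets, 55.4% lay above 0 and 11.4% had an unadjusted p under 0.05. Ndufaf4, a factor for early complex I intermediates, had signals of 890.0, 768 and 1029.6 in isolated livers, against 545, 496 and 708 in control livers, by probe set 1427997_at. Every isolated array lay above every control array. The log2 change was 0.62 ± 0.17 (1.54-fold, 95% interval 0.27 to 0.98), with a limma adjusted p of 0.0691.

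The other Ndufaf4 probe set, 1435333_at, had signals of 537, 629.6 and 661 in isolated livers, against 435, 378 and 499 in control livers, again without overlap. Its log2 change was 0.48 ± 0.16, with a limma adjusted p of 0.19. Ndufaf4 (1427997_at) passed in 7 of the 16 settings tried, among them median centring (adjusted p 0.0257), quantile normalization (0.0209) and the robust trend (0.0419). Dropping the intensity trend gave 0.322 and leaving out control replicate 2 gave 0.308, both short of the threshold, and its log2 change ran from 0.52 to 0.77 over all settings.

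Ndufaf5, a hydroxylase that acts on a core subunit during assembly, had signals of 66, 57.1 and 77.3 in isolated livers, against 42.6, 41.9 and 47.9 in control livers. The groups did not overlap, and the log2 change was 0.57 ± 0.23 (limma adjusted p 0.306). The other assembly factors overlapped between groups. Their log2 changes were 0.19 for Ndufaf1, -0.00 for Ndufaf2, 0.19 for Ndufaf3, -0.03 for Ndufaf6, 0.02 for Ndufaf7, and 0.06 and 0.15 for the 2 probe sets of Ndufaf8.

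**Figure D3:**
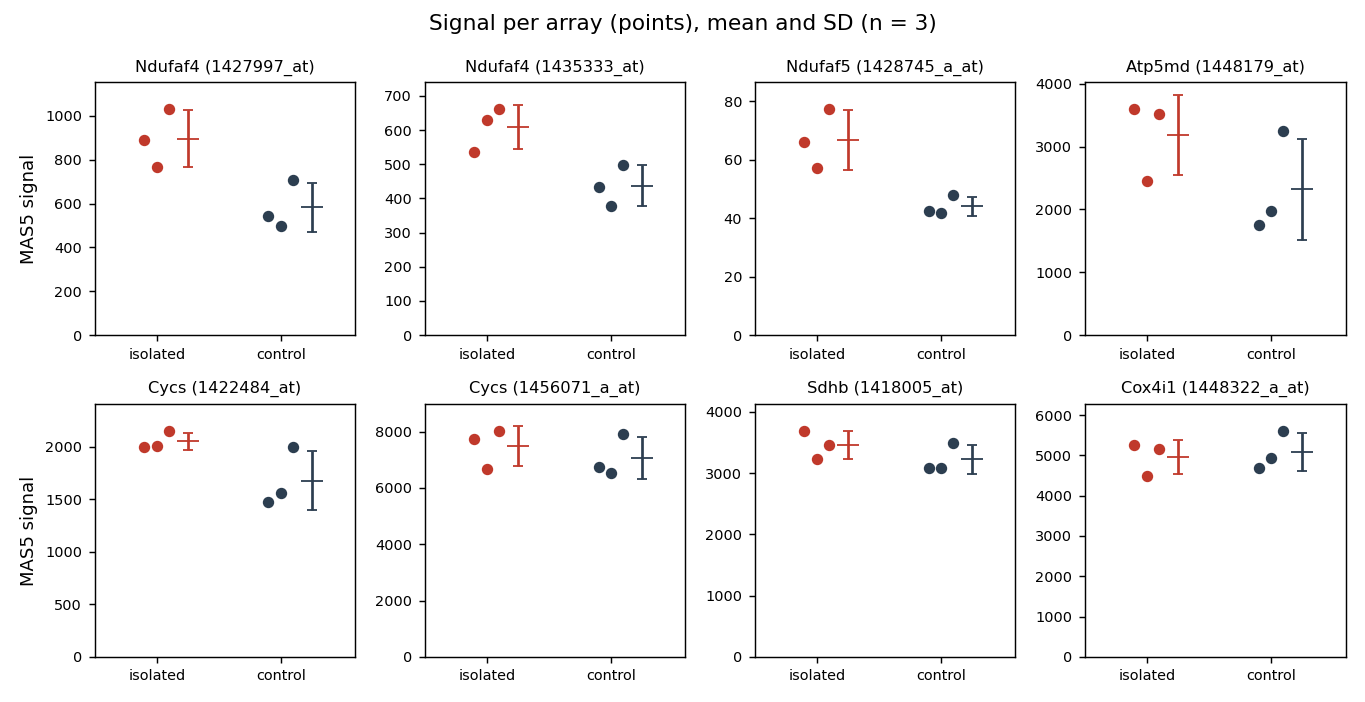
MAS5 signal (y axis, linear, from 0) of 8 member probe sets in isolated and control livers, with a point per array and the mean and SD (n = 3) beside them. Both Ndufaf4 probe sets and Ndufaf5 show no overlap between groups, while Atp5md has 1 control array within the isolated range, and Sdhb and Cox4i1 are nearly level.

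Complex II, succinate dehydrogenase, is wholly nuclear-encoded and also works in the tricarboxylic acid cycle. By the brightest probe set of each of its 4 genes, the log2 changes ran from 0.10 to 0.14 and none was called. The flavoprotein gene Sdha had signals of 3016, 3004 and 3344 in isolated livers, against 2809, 2620.2 and 3289.8 in control livers (0.11 ± 0.13, limma adjusted p 0.849). The iron-sulfur subunit gene Sdhb had 3684, 3235 and 3464 in isolated livers, against 3083, 3089 and 3499 in control livers (0.10 ± 0.12, limma adjusted p 0.849). In both genes control array 3 lay within the isolated range.

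The membrane anchor genes behaved alike. Sdhc had 1831, 1579 and 2105 in isolated livers, against 1612, 1571 and 1922 in control livers (0.11 ± 0.14). Sdhd had 1657, 1325 and 1668 in isolated livers, against 1340.2, 1352 and 1513 in control livers (0.14 ± 0.14, 95% interval -0.16 to 0.44). A second Sdha probe set had 2045, 1913 and 2312 in isolated livers, against 1814, 1749 and 2083 in control livers (0.15 ± 0.14). A second Sdhc probe set had 547, 376 and 471 in isolated livers, against 394, 464 and 567 in control livers (-0.03 ± 0.18). A second Sdhd probe set had 0.04, all of these overlapped between groups, and 2 further Sdha probe sets lay below the filter.

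Complex III, the cytochrome bc1 complex, hands electrons to cytochrome c. None of its 15 tested probe sets of 9 genes was called or separated the groups. Cyc1, the haem-bearing cytochrome c1, had signals of 3542, 3097 and 3819.6 in isolated livers, against 2860.5, 3078 and 3648 in control livers (0.13 ± 0.13, limma adjusted p 0.817). Uqcrfs1, the Rieske iron-sulfur protein, had 2376, 2134 and 2564 in isolated livers, against 2126, 2025 and 2457 in control livers (0.10 ± 0.13). In both, control array 3 lay within the isolated range and the other controls lay just below it.

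The matrix-facing core proteins were similar, with the 2 probe sets of Uqcrc2 at 0.13 and 0.04. Uqcrc1 had 1495, 1291 and 1618 in isolated livers, against 1355, 1189.7 and 1469.8 in control livers (0.13 ± 0.14). Uqcrb, a small subunit, read 10909, 9418 and 10759 in isolated livers, against 9705, 9414 and 10615 in control livers (0.06 ± 0.11). The groups overlapped in both genes.

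The outermost values of the complex came from second probe sets of the small subunit genes Uqcr10 and Uqcrq. Uqcr10 (1434341_x_at) had 139, 82.9 and 158 in isolated livers, against 96.1, 115 and 107 in control livers (0.20 ± 0.23). Uqcrq (1427880_at) had 28.2, 18.6 and 20.1 in isolated livers, against 29.7, 25.8 and 19.9 in control livers (-0.16 ± 0.35). Both overlapped between groups. Another dim Uqcr10 probe set had 33.5, 16.4 and 47.1 in isolated livers, against 21.3, 34.5 and 40.0 in control livers (-0.05 ± 0.36). The bright Uqcrq probe set had 3021, 2275 and 2956 in isolated livers, against 2767, 2633 and 3098 in control livers (-0.05 ± 0.14). The bright Uqcr10 probe set stood at 0.02. Uqcr11 had -0.04, and the 2 probe sets of Uqcrh had 0.03 and 0.10.

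Complex IV, cytochrome c oxidase, has several subunits that exist as a widely used form and as a form of other tissues, such as heart and skeletal muscle. Over 21 tested probe sets of 9 genes for the common subunits, log2 changes ran from -0.33 to 0.40 with a median of -0.01, and 0 of the 27 tested probe sets of the complex separated the groups. Cox4i1 had signals of 5267, 4475 and 5147 in isolated livers, against 4698, 4931 and 5599 in control livers, with a log2 change of -0.03 ± 0.12 and a 95% interval of -0.28 to 0.22. Cox6a1 had 6035, 5351 and 6172 in isolated livers, against 5962, 5584 and 6322 in control livers (-0.03 ± 0.12). The ranges of the groups overlapped broadly.

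Cox7a2 had 7618, 6929 and 7381 in isolated livers, against 6604, 6795 and 7589 in control livers (0.06 ± 0.11). Cox6b1 had 6380.1, 5937 and 6361 in isolated livers, against 5867, 5649 and 6502 in control livers (0.05 ± 0.11). Cox6c had 4478, 3849 and 4510.4 in isolated livers, against 4139, 4013 and 4614 in control livers (0.01 ± 0.12). All 3 of these subunit genes overlapped between groups. Cox8a had 1285, 1091 and 1329 in isolated livers, against 1122, 1182 and 1439 in control livers (-0.01 ± 0.15), and the tested probe sets of Cox5a and Cox5b lay between -0.04 and 0.02. Cox7a2l is a gene linked to the joining of complexes III and IV into supercomplexes, a role not examined here. It had 956, 862 and 1008 in isolated livers, against 963, 999 and 1110.5 in control livers (-0.12 ± 0.14). Its other probe sets had -0.08 and 0.01. Cox7c was read by 2 dim probe sets with opposite signs. One had 49.3, 39.2 and 40.3 in isolated livers, against 32.1, 19.97 and 49.9 in control livers (0.40 ± 0.31). The other had 22.9, 8.13 and 20.4 in isolated livers, against 21.7, 23.7 and 16.5 in control livers (-0.33 ± 0.44).

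Of the 7 isoform genes of other tissues (Cox4i2, Cox6a2, Cox6b2, Cox7a1, Cox7b2, Cox8b and Cox8c), 3 had a tested probe set and none was called. Cox6a2, the heart and muscle form, had 33.3, 24 and 20.7 in isolated livers, against 15.8, 4.19 and 36.8 in control livers, and its log2 change of 0.76 ± 0.52 was 0.06 when control replicate 2 was left out. Cox7a1, also a muscle form and abundant in brown fat, had 33.1, 28.4 and 29.9 in isolated livers, against 26.9, 34.7 and 35.9 in control livers (-0.08 ± 0.29). Cox8c, known from testis, had 122, 77.1 and 102 in isolated livers, against 84.9, 128 and 106 in control livers (-0.09 ± 0.22). These levels overlapped between groups, and the 7 skeletal muscle markers summed to 64.0 to 121 in isolated livers, against 93.5 to 111 in control livers.

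The remaining isoforms lay below the filter, so they were not tested. Cox8b, a muscle and brown fat form, had 0.851, 5.82 and 33.8 in isolated livers, against 3.51, 8.79 and 8.4 in control livers. Cox4i2, known from lung, had 1.37, 1.02 and 1.29 in isolated livers, against 1.31, 21.4 and 8.27 in control livers. Single arrays were high for Cox8b (isolated array 3) and Cox4i2 (control array 2). Cox6b2 had 14.5, 18.6 and 8.21 in isolated livers, against 17.3, 14.5 and 19.8 in control livers. Cox7b2 had 0.568, 9.14 and 1.16 in isolated livers, against 7.92, 1.11 and 5.57 in control livers.

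Adipocyte markers were read because some isoforms are fat forms. The 7 on the array summed to 246 to 528 in isolated livers, against 162 to 268 in control livers, and their changes differed in sign. Fabp4, a fatty acid carrier gene also made in macrophages and endothelium, had 203, 300.3 and 404 in isolated livers, against 117, 202 and 157 in control livers, without overlap (0.90 ± 0.23, limma adjusted p 0.0578). Cidec, a lipid droplet gene, had 20.5, 19.0 and 19.5 in isolated livers, against 19.9, 32.8 and 22.9 in control livers (-0.30 ± 0.36, limma adjusted p 0.847). These 2 were the tested markers and 0 were called.

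The other 5 markers lay below the filter. Adipoq had 3.78, 59.5 and 54.8 in isolated livers, against 4.38, 8.48 and 15.6 in control livers, and Retn had 2.65, 19.96 and 42.2 in isolated livers, against 2.39, 2.78 and 3.88 in control livers. Both were highest on isolated arrays 2 and 3 and overlapped on isolated array 1. Cidea had 12.3, 14.6 and 1.76 in isolated livers, against 13.1, 18.3 and 3.58 in control livers. Lep and the brown fat marker Ucp1 read from 0.775 to 3.08 in isolated livers, against 0.796 to 3.3 in control livers. Leaving out isolated arrays 2 and 3, with the 1 isolated array left taken to vary as the controls do, gave Ndufaf4 (1427997_at) a log2 change of 0.63, against 0.62 over all arrays. The first value rests on isolated array 1 alone, where Fabp4 (203) stood just above the control range (117 to 202). Whether fat tissue bears on the Ndufaf4 change was not tested, and a value from 1 isolated array cannot decide it.

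Complex V, the ATP synthase, couples the catalytic F1 head to the proton channel in the membrane. The head subunits (9 tested probe sets of 5 genes) had a median log2 change of 0.01. Atp5b, the catalytic beta subunit, had signals of 6408, 5286 and 6293 in isolated livers, against 5681, 5369 and 6735 in control livers (0.02 ± 0.12, 95% interval -0.24 to 0.28). Atp5a1, the alpha subunit, had log2 changes of 0.01 and -0.02 in its bright probe sets. A weaker Atp5a1 probe set, 1420037_at, had 259.5, 250.2 and 218 in isolated livers, against 181, 219 and 229.8 in control livers (0.21 ± 0.18). All of these overlapped between groups.

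The lowest values of the complex belonged to probe sets of the gamma and delta subunit genes. Atp5c1 (1438809_at, dim) had 30.3, 31.5 and 45 in isolated livers, against 34.3, 50.4 and 42.4 in control livers (-0.24 ± 0.27). Atp5d (1423716_s_at) had 1238, 893 and 1272 in isolated livers, against 1098, 1189.5 and 1271 in control livers (-0.08 ± 0.16). Both overlapped, and the other probe sets had -0.02 for Atp5c1 and 0.11 for Atp5d.

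The membrane and stalk subunits, with 19 tested probe sets of 12 genes, had a median of 0.06, and their highest value belonged to Atp5md, a small subunit that holds ATP synthase dimers together. Atp5md had signals of 3592, 2459 and 3513 in isolated livers, against 1754, 1972 and 3242 in control livers. Control array 3 lay among the isolated arrays, whereas the other controls were lower than all of them. The log2 change was 0.49 ± 0.19 (1.4-fold, limma adjusted p 0.276), and without control replicate 3 it was 0.76 with an adjusted p of 0.0371.

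The c-ring genes, 3 genes that encode the same mature protein, stayed near 0. Atp5g1 had 2898, 2341 and 2713 in isolated livers, against 2265, 2219.7 and 2952 in control livers (0.10 ± 0.14). Atp5g2 had 2133, 1744 and 1978 in isolated livers, against 1821, 1901 and 2214 in control livers (-0.02 ± 0.14). Atp5g3 had 7153, 6486 and 7099 in isolated livers, against 6794, 6561 and 7258 in control livers (0.01 ± 0.11). The groups overlapped in all 3 genes. Atp5mpl, another small membrane subunit, had 2120.0, 1943 and 2275 in isolated livers, against 1896, 1701 and 2057 in control livers (0.17 ± 0.13). Atp5pb had 0.14 and 0.01, and the 3 probe sets of Atp5k had from 0.09 to 0.14. A dim probe set of Atp5j2, a membrane subunit gene, had 58.9, 34.0 and 59.7 in isolated livers, against 34.7, 73.1 and 54.1 in control livers (-0.06 ± 0.29), with 0.09 and 0.05 in the bright ones.

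Cytochrome c, the mobile carrier between complexes III and IV, was read by 4 probe sets of Cycs. By 1422484_at its signals were 1997, 2006 and 2147 in isolated livers, against 1471, 1559 and 1995 in control livers, with a log2 change of 0.30 ± 0.14 (limma adjusted p 0.419). By 1422483_a_at they were 3762, 3680.1 and 4002 in isolated livers, against 3398, 3116 and 3657 in control livers (0.17 ± 0.12, limma adjusted p 0.679). Both separated the groups by a narrow margin. The brightest, 1456071_a_at, had 7734, 6673 and 8013 in isolated livers, against 6740.5, 6534 and 7918 in control livers and overlapped (0.08 ± 0.12), and the dim 1445484_at had 25.9, 24.1 and 25.2 in isolated livers, against 29.6, 20.6 and 28.7 in control livers (-0.05 ± 0.33).

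The 20 member probe sets below the filter left 6 genes with no tested probe set, namely Ndufa4l2 and Ndufb4 beside 4 of the complex IV isoforms. Ndufa4l2, a relative of Ndufa4 induced in hypoxia, had 14, 10.6 and 13.6 in isolated livers, against 8.91, 9.89 and 8.7 in control livers. Ndufa3 probe set 1430149_at had 6.92, 14.2 and 13.6 in isolated livers, against 25.9, 29.9 and 23.4 in control livers, while the bright Ndufa3 probe sets had log2 changes of -0.01 and 0.03. Signals this low have no detection calls here, and no fold is given for them.

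Other mitochondrial genes, taken 1 probe set a gene from lists chosen with earlier results of these data known, held 1 call. Idh3a, the catalytic subunit gene of NAD-dependent isocitrate dehydrogenase, had signals of 851, 1020.1 and 1128 in isolated livers, against 593, 544 and 607 in control livers. It rose by 0.77 ± 0.15 on the log2 scale (limma adjusted p 0.00925), and its other probe sets had 0.70 and 0.76 and did not pass. The call ended without the intensity trend (adjusted p 0.184) and when isolated arrays 2 and 3 were left out (0.394, with a log2 change of 0.55). Of 13 tested tricarboxylic acid cycle genes, 1 was called higher and 0 lower, 12 lay above 0 and the median was 0.13. Of all tested probe sets, 1.63% were called, 55.4% lay above 0 and the median was 0.04. Counts above 0 in these lists are on the deposited scale, and the lean of the members on that scale was lost under median centring. Cs, citrate synthase, had 502, 542 and 722 in isolated livers, against 329, 449 and 480.4 in control livers (0.49 ± 0.18, limma adjusted p 0.254), and other Cs probe sets had -0.03 and 0.22. Idh3g, a regulatory subunit gene of the same isocitrate dehydrogenase, had 778, 672 and 1005 in isolated livers, against 708, 651 and 710.1 in control livers (0.23 ± 0.16).

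Of 39 further assembly factors tested, for complexes I to V, 0 were called, 30 lay above 0 and the median log2 change was 0.14. Over all tested probe sets 55.4% lay above 0 and the median was 0.04. Cox11, which delivers copper to complex IV, had 461, 349.9 and 544 in isolated livers, against 348, 265 and 357 in control livers (0.47 ± 0.19, limma adjusted p 0.306). Atpaf2, a chaperone of the ATP synthase head, had 106, 105 and 113 in isolated livers, against 71.5, 75.2 and 97.9 in control livers (0.41 ± 0.20, limma adjusted p 0.446). Uqcc1, a complex III factor, had 175, 167 and 175 in isolated livers, against 132, 129.6 and 145 in control livers (0.34 ± 0.18, limma adjusted p 0.501), and 0.40 in its second probe set. Cox11 overlapped between groups, while Atpaf2 and Uqcc1 did not.

 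Of 22 other mitochondrial proteins 0 were called, with a median log2 change of 0.12. The smallest p-values among them belonged to Tomm40, Vdac2 and Mfn2. The import channel gene Tomm40 had 279, 256 and 311 in isolated livers, against 193, 192 and 215 in control livers, without overlap (0.49 ± 0.17, limma adjusted p 0.208). Vdac2, an outer membrane channel gene, had 1381, 1465 and 1697 in isolated livers, against 1287, 1185 and 1462 in control livers (0.21 ± 0.14). Mfn2, a mitochondrial fusion gene, had 381, 291 and 428 in isolated livers, against 339.9, 250.3 and 329 in control livers (0.25 ± 0.19), and it overlapped, as did Vdac2. The 13 mitochondrially encoded genes were not analysed here.

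Of 19 tested regulators of mitochondrial biogenesis, 0 were called, 9 lay above 0 (against 55.4% of all tested probe sets) and the median was -0.01. At an unadjusted limma p under 0.05, 2 of the 19 were higher and 2 lower, against 11.4% of all tested probe sets in either direction. Tfb1m, a methyltransferase of mitochondrial ribosomal RNA, had 253, 187 and 271 in isolated livers, against 151, 135 and 141 in control livers (0.71 ± 0.19, limma adjusted p 0.0641), while its dimmer probe set had -0.16. Esrra, an orphan nuclear receptor gene, had 179, 189 and 224 in isolated livers, against 127, 121 and 154 in control livers (0.55 ± 0.19, limma adjusted p 0.186), and -0.51 in a dim second probe set. Ppargc1a had 49.8, 51.3 and 43.4 in isolated livers, against 69, 76.2 and 62 in control livers (-0.50 ± 0.22, limma adjusted p 0.375), and all 5 of its tested probe sets lay below 0. Gabpa had -0.19 ± 0.18, Nrf1 had -0.01 ± 0.26 and Tfam had 0.09 ± 0.17.

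**Figure D4:**
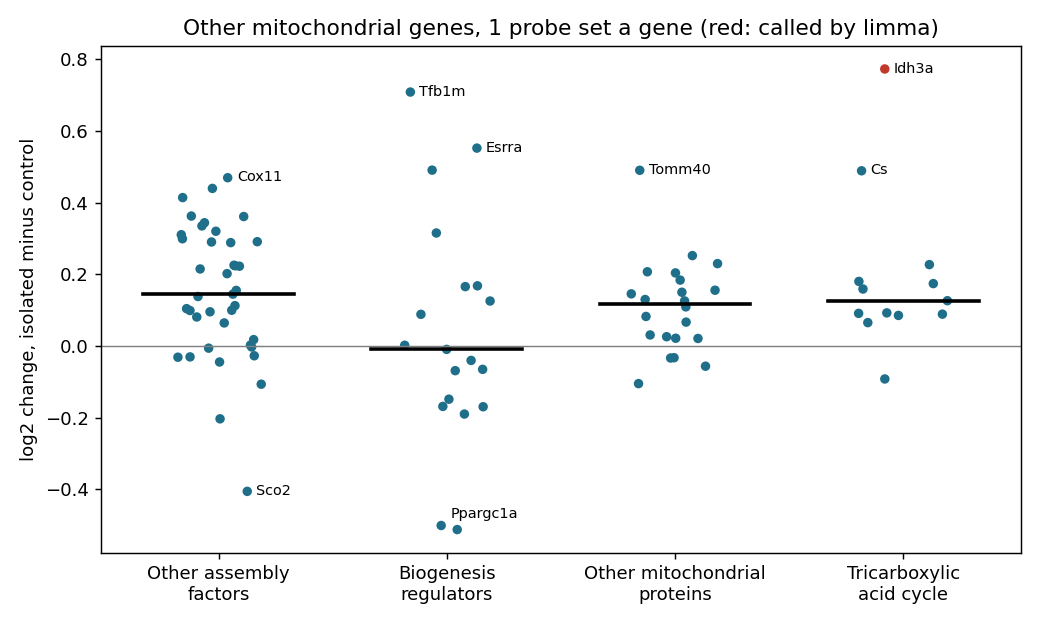
Log2 change (isolated minus control, y axis) of the tested genes of 4 other mitochondrial lists, 1 probe set a gene, with a bar at each list's median and the called gene in red. Idh3a is the 1 called gene, at 0.77. The regulators spread on both sides of 0, from Tfb1m at 0.71 to Pprc1 at -0.51, with Ppargc1a next to lowest at -0.50.

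Markers of the tissue and measures of RNA quality were read on the same arrays. The 6 hepatocyte markers, Alb among them, summed to 65081 to 70836 in isolated livers, against 69758 to 71789 in control livers, with 0 called. None of the tested markers of skeletal muscle (1 tested), erythroid cells (1), Kupffer cells (4) or cholangiocytes (2) was called, and the 3 pancreatic markers lay below the filter. The Gapdh ratio of 3′ to 5′ signal averaged 0.691 in isolated livers and 0.705 in control livers (exact permutation p 0.2, two-sided), and the actin ratio 2.16 and 2.21 (exact permutation p 0.8), where 3 against 3 arrays cannot give a p under 0.1.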

How the data were processed

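The 6 samples of liver RNA, 3 isolated and 3 control, were grouped by their titles. Intensity values were deposited by the authors as MAS5 signals, per the submitters' processing notes, while no source used here gives the software version, scaling target or detection calls. The deposited scale was kept. The 64 control probe sets were set apart, leaving 45037, of which 34945 had 1 symbol, 932 several and 9160 none. A pseudocount of 2 was added before log2, so fold changes of dim probe sets are understated, and a probe set was tested where its mean log2 over all arrays lay in the upper 50% (floor near a signal of 18). With limma 3.58.1 in R 4.3.3, isolated was compared with control by a linear model with variances moderated along an intensity trend (16.1 prior against 4 residual degrees of freedom), two-sided, with Benjamini-Hochberg adjustment over 22519 probe sets. SE and 95% intervals are those of that fit. A gene was represented by its brightest probe set in gene lists. The members and lists were chosen with earlier results of these data known.

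Values on every array are given for the 3 tested probe sets with the largest changes each way per complex, for isoform families, complex II and Cyc1 by the brightest probe set of each gene, for Cycs, and for the called gene and 3 smallest p-values per other list. Members beyond this rule were named as examples. On simulated data for this comparison (22519 probe sets, 200 changed, normal noise) 72% of changes of 1 log2 unit and 98% of 2 were recovered, with 7 of 177 calls false. Tested members had log2 changes from -0.33 to 0.81, and recovery of changes that small is not given. The NRF1 letters were shortened from a longer form searched first, which stood in fewer promoters of members and of all genes. All 184 members matched a RefSeq gene (GRCm38.p6). Alternatives covered pseudocount, filter, scaling, variance model, replicate block, probe set per gene and left-out arrays. Precision is limited by there being 3 arrays a group and by the deposited scale that was kept. The median SE over tested members was 0.14 on that scale, against 0.09 after median centring and 0.08 after quantile normalization. Figures were drawn with matplotlib 3.10.9.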

Additional observations from a re-analysis of the deposited data

How the results depend on the processing

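With the counts of calls, 0 members were lower under all 16 alternatives. The count of higher members, 0 in the fit reported, was 1 with the upper 25% filter, median centring, quantile normalization, the robust trend and the replicate block, and it ran from 0 to 2 with 1 array left out; the called probe set was Ndufaf4 (1427997_at), joined without control replicate 3 by Atp5md. The count stayed 0 with a pseudocount of 16, without a filter, without the intensity trend, with 1 probe set a gene and with isolated arrays 2 and 3 left out. The labels number the arrays 1 to 3 in both groups, but same-numbered arrays correlated at 0.01, 0.04 and 0.00 in their deviations, so the replicate block only shares a number. Under it 513 probe sets were called in all, against 367.

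Complex medians moved by less than the spread between arrays under all 16 alternatives, although the sign of those near 0 was not fixed: complex I ran from -0.00 to 0.16, complex II from 0.05 to 0.21, complex III from 0.02 to 0.15, complex IV from -0.06 to 0.08, complex V from -0.01 to 0.16 and all members from -0.01 to 0.13. Among 33 single probe sets, 446 of 483 alternative values kept direction and side of the threshold, 8 passed it anew, 2 (both Idh3a) lost it and 27 uncalled values crossed 0. Dim probe sets limit what can be seen, with a median SE of 0.29 below a mean signal of 100, against 0.14 above it.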
